A study of Mus musculus with 6 samples.

Results

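Binding sites of WDR5 and regions of histone H3 trimethylated at lysine 4 (H3K4me3) were compared within 1 mouse embryonic stem cell line, in which wild-type WDR5 replaced the endogenous protein. All rows on chromosomes 1 to 19 of the WDR5 and the H3K4me3 peak list of that line were taken. They came to 10942 WDR5 peaks and 69221 H3K4me3 regions, together 80163 of the 183983 rows in the 4 peak lists of the study. GFP had been knocked in at Rx, which encodes a transcription factor of the eye field. The cells grew in 2i+LIF, a medium that holds mouse stem cells in the naive pluripotent state. In every group both Wdr5 and p53 had been knocked out, and the line described here was rescued with WDR5WT (WT rescue). A second line, rescued with WDR5 carrying S91K and Y191F (mutant rescue), is given beside it where the same measure was taken. Chromatin was fixed with 1% PFA for 10 minutes, and 1 WDR5 and 1 H3K4me3 library per line were used. The promoter of the rescue construct, the number of clones and the position of the knockouts were not given in the sources used here, and no line with endogenous WDR5 or p53 was analysed here.

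WDR5 is a beta-propeller protein that serves as a scaffold in the KMT2/SETD1 complexes, the methyltransferases that act on lysine 4 of H3. It also contacts transcription factors, MYC among them, and in human cell lines it is known to sit at many ribosomal protein genes. H3K4me3 marks the starts of genes that are active or poised for transcription, above all those with CpG-rich promoters, and its broadest regions are known to lie at highly transcribed and cell identity genes.

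The WDR5 peaks were short, with a median width of 205 bp, and covered 2.71 Mb. The H3K4me3 regions had a median width of 747 bp and covered 60.5 Mb, or 2.52% of the span of the 19 chromosomes. Both lists reached down to weak peaks: a −log10 q of at least 2 was held by 1133 WDR5 peaks (10.4%) and by 94.0% of H3K4me3 regions. All 9 stem cell markers examined, Pou5f1, Sox2 and Nanog among them, had an H3K4me3 region at the start, as had 6 of 7 fibroblast markers. In the longer lists it was at 23 of 23 naive pluripotency genes and 8 of 13 fibroblast genes, with none at Col3a1, Col6a1, Dcn, Lum and Postn. Over all protein-coding genes it was at 14497 of 20661 (70.2%). Lineage lists were also nearly complete, with 18 of 18 neuroectoderm and eye field, 20 of 22 mesoderm and endoderm and 35 of 39 Hox genes. The counts thus do not set stem cell genes apart. H3K4me3 at a start is no measure of expression. Each antibody had 1 library in each line, so groups could not be tested against each other, and the intervals given, all at 95%, cover counting error only.

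The promoters of 6 genes are shown first, since they show how WDR5 and H3K4me3 lay at gene starts. Each runs from 250 bases before to 50 bases after the gene start (RefSeq, GRCm38.p6, the assembly also called mm10), 5′ to 3′ on the gene's strand. H2-D1 is a class I histocompatibility gene. Its WDR5 peak had the highest −log10 q among those with the summit in an H3K4me3 region at a protein-coding gene start. Rpl13 and Rps6 encode proteins of the large and small ribosomal subunit and Eef2 encodes translation elongation factor 2. Gm20346 had the widest H3K4me3 region without a WDR5 peak, a region that also overlaps the gene Anp32a, and Pou5f1 (Oct4), the central pluripotency factor, had a wide one without WDR5. H2-D1 and Gm20346 were taken by rank; the other 4 were chosen after their values were seen. Capitals mark matches, on either strand, to the E-box CACGTG, the GC box GGGCGG, the CCAAT box CCAAT, the ETS core CCGGAA, the YY1 core AAGATGG and the NRF1 core GCGCATG.
H2-D1, chr17:35262844-35263143, plus strand: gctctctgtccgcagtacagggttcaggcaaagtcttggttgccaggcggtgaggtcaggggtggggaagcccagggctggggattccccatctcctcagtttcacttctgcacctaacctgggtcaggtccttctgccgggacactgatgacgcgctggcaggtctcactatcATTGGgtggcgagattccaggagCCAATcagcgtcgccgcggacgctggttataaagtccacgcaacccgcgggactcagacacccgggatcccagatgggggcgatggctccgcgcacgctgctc
Rpl13, chr8:123102100-123102399, plus strand: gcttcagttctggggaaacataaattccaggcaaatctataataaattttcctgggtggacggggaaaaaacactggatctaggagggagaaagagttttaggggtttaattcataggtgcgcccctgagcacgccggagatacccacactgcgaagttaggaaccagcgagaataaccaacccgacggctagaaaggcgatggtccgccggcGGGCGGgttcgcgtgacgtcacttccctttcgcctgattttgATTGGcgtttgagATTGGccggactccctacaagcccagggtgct
Rps6, chr4:86857318-86857617, minus strand: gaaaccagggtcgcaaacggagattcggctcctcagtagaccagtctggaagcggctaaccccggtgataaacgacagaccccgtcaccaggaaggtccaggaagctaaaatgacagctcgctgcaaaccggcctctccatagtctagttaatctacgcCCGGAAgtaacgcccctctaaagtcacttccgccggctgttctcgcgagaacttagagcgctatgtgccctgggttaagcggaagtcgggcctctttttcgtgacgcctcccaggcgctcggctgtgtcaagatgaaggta
Eef2, chr10:81176381-81176680, plus strand: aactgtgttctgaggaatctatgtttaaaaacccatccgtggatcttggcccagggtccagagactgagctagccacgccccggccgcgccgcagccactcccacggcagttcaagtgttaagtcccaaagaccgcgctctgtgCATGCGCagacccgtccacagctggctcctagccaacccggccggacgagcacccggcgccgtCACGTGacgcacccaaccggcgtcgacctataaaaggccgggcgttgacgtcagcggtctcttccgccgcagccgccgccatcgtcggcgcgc
Gm20346, chr9:62344598-62344897, minus strand: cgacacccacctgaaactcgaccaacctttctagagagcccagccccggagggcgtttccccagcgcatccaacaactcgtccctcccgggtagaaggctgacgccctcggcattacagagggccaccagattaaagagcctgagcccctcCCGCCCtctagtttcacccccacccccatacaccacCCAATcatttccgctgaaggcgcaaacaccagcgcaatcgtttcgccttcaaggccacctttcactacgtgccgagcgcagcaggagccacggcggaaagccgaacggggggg
Pou5f1, chr17:35505782-35506081, plus strand: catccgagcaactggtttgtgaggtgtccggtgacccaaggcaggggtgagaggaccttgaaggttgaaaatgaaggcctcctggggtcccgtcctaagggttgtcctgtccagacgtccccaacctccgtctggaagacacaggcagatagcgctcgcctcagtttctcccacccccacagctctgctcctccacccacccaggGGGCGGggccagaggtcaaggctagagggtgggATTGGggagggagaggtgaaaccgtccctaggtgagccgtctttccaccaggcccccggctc
In Rpl13 the WDR5 peak covered all 300 bases shown, whereas the H3K4me3 region covered 17 of them, at the downstream end. In Eef2 the WDR5 peak covered 266 bases and the H3K4me3 region 27. The Rps6 window lay wholly inside both. The H2-D1 window held 184 bases of the WDR5 peak and lay inside its H3K4me3 region. In Gm20346 the H3K4me3 region covered 114 of the bases and in Pou5f1 all of them, with no WDR5 peak on either region.

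Of the 10942 WDR5 summits, the positions of highest signal within each peak, 4862 lay inside an H3K4me3 region, a share of 44.4% (43.5 to 45.4%). The share was higher among stronger peaks. It was 74.5% (844 of 1133, 71.8 to 77.0%) at a −log10 q of at least 2 and 89.1% (286 of 321, 85.2 to 92.3%) at 10 or more. Among peaks with a −log10 q under 2, which were 9809 of the 10942, 41.0% lay inside. When the list was cut into 10 equal groups by −log10 p, the share was 33.6% in the group of lowest −log10 p and 75.7% in that of the highest. The 7 lower groups lay between 29.4 and 46.7% without a steady order, the next had 47.8% and the next 64.3%. The figures of fold and −log10 q for single peaks are the authors' own, from the deposited lists.

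In the mutant rescue 2944 of 26691 WDR5 summits, 11% (10.7 to 11.4%), lay inside that line's H3K4me3 regions, which covered 2.57% of the same span. Of its peaks with −log10 q of 2 or more, the share inside was 58.3% (723 of 1241, 55.5 to 61.0%). The mutant list held more peaks in all and fewer inside H3K4me3 than the WT list. Both lines stand on 1 WDR5 library each, so line and library cannot be told apart.

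**Figure D1:**
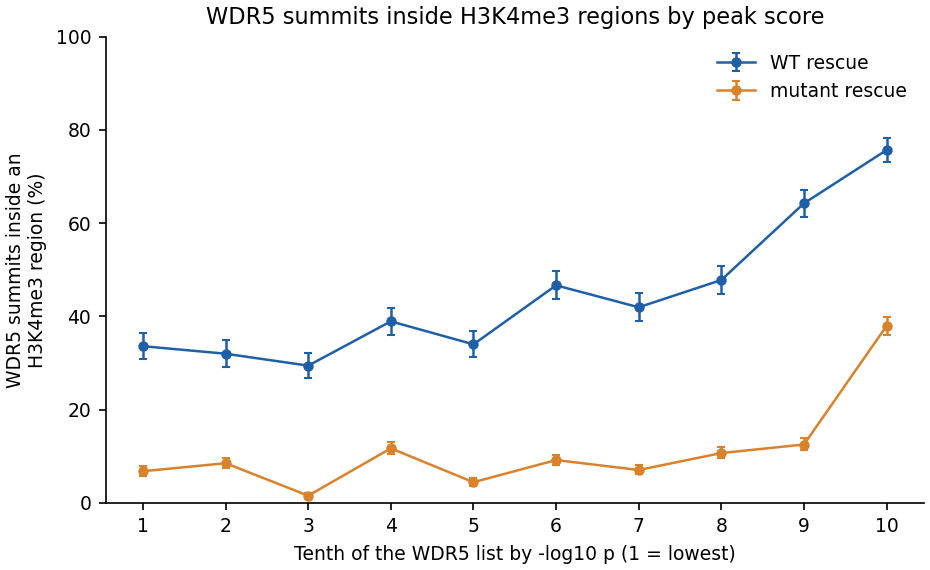
Share of WDR5 summits inside an H3K4me3 region (y axis, percent) for 10 equal groups of the WDR5 list ordered by −log10 p (x axis), in the WT rescue and the mutant rescue; bars are exact 95% binomial intervals. The WT line runs from 33.6% in the lowest group to 75.7% in the highest and lies above the mutant line in all 10 groups; the mutant line runs from 6.78 to 38.0%.

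Along the genome, without regard to the strand of genes, the median position of inside WDR5 summits was 0.491 of the way across the region, with quartiles at 0.333 and 0.647. Offsets toward the upstream side of genes on opposite strands would cancel in this value. Oriented by strand, the median was 0.423 over 2822 protein-coding genes with a known start, a different set. No value without orientation was taken for those genes. The median distance between the WDR5 summit and the H3K4me3 summit of the same region was 161 bp (153 to 169 bp), and 84.5% of pairs were within 500 bp. This distance grew with the region, from 7 bp in regions of up to 300 bp and 168 bp in those of 1 to 2 kb to 474 bp in those over 3 kb. Both summits lie inside the region, so its width bounds their distance and such growth is partly built in. The 226 summits in the narrowest class included many in regions hardly wider than the WDR5 peak itself.

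Summits outside H3K4me3 were for the most part far from it. The median distance of the 6080 outside summits to the nearest region was 10402 bp (9797 to 11003 bp), and 754 of them (12.4%) were within 1 kb. The farthest was 618121 bp away. Only 3.42% of outside summits were within 1 kb of a protein-coding gene start, against 66.9% of inside summits. Instead 52.6% lay inside genes away from starts and 40.5% outside any gene, against 16.6 and 11% of inside summits.

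**Figure D2:**
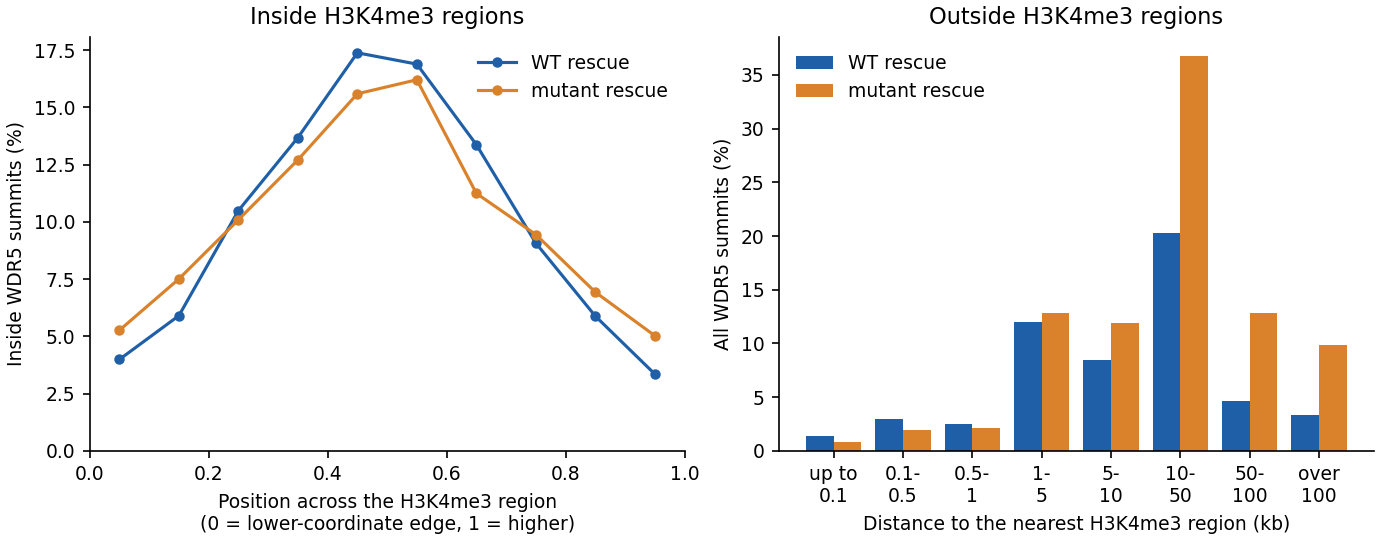
Left, position of inside WDR5 summits across their H3K4me3 region, in 10 equal bins of its length from the lower to the higher genome coordinate (y axis, percent of inside summits); right, distance of outside summits to the nearest H3K4me3 region in kb (y axis, percent of all WDR5 summits of the line). In the WT rescue the 2 central bins hold 17.4 and 16.9% of inside summits; the bar for 10 to 50 kb is the tallest of the outside classes in both lines.

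At gene starts the WDR5 summit lay just downstream of the start and slightly upstream of the H3K4me3 summit. For the 1765 genes with 1 annotated start and a WDR5 summit in the H3K4me3 region there, the WDR5 summit was at a median of +188 bp (174 to 199 bp, quartiles 19 and 367 bp). The H3K4me3 summit of the same genes was at +250 bp (236 to 262 bp, quartiles 157 and 362 bp). The start or a position downstream of it held 77.3% of WDR5 summits and 90.9% of H3K4me3 summits. WDR5 summits thus reached upstream of the start more often, at 401 of 1765 genes against 160 for H3K4me3. With WDR5 peaks of −log10 q of at least 2, at 248 genes, the medians were 164.5 and 270.5 bp. In the mutant rescue they were 146 and 215 bp over 898 genes.

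Among the gene lists with at least 10 such genes, the cytosolic ribosomal protein genes had this order of the summits most often. At 46 of these genes with a known start, the median WDR5 summit was at +163 bp (144 to 183 bp), with quartiles at 139 and 211 bp, and the median H3K4me3 summit at +442.5 bp (365 to 516 bp). WDR5 lay upstream of the H3K4me3 summit at 42 of the 46 genes (91.3%, 79.2 to 97.6%), against 1681 of 2822 protein-coding genes (59.6%, 57.7 to 61.4%). The upstream edge of their H3K4me3 region was at a median of −56 bp from the start, with quartiles at −537 and 6.75 bp, against −563.5 bp over the 2822 genes. Over the 2822 genes the median WDR5 summit was at +155.5 bp and the median H3K4me3 summit at +224 bp. WDR5 thus lay at a similar distance from the start in both sets, while the H3K4me3 summit and upstream edge differed. Relative to the mark, WDR5 summits of ribosomal protein genes stood near its upstream edge, at a median of 0.124 of the way across it. Over all such genes that median was 0.423. The other lists with at least 10 such genes ran from 0.242 in the translation factors (edge −128 bp) to 0.497 in the mitochondrial ribosomal protein genes (edge −751.5 bp). Naive pluripotency genes had 0.226 (edge −79.5 bp) over 6 genes. The comparison was matched neither on region width nor on peak strength. Restricting the list to the 39 genes with 1 start gave +164 and +449 bp, against +174 and +237 bp over 2197 such protein-coding genes.

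Single genes, some chosen after their values were seen, show the spread of these positions. In Rpl13 the H3K4me3 region began 33 bp downstream of the start, the WDR5 summit was at +191 bp and the H3K4me3 summit at +610 bp. In Rps10, a small-subunit protein gene, the WDR5 summit was at +145 bp and the H3K4me3 summit at +1171 bp. In Rps6 the WDR5 summit was again at +145 bp, but its H3K4me3 region reached 815 bp upstream of the start and peaked at +347 bp. Eef2 resembled Rpl13, with the region beginning at 23 bp, WDR5 at +186 bp and H3K4me3 at +596 bp. The 4 ribosomal protein genes with the reverse order were Rpl13a, Rps9, Rps19 and Rps23. In Rps9 the WDR5 summit was at +1562 bp, the farthest of the 46, and in Rps19 the H3K4me3 summit was at −65 bp, upstream of the start. The translation factors had medians of +209 bp for WDR5 and +409 bp for H3K4me3 over 15 genes, whereas the mitochondrial ribosomal protein genes had +86 and +150.5 bp over 14.

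**Figure D3:**
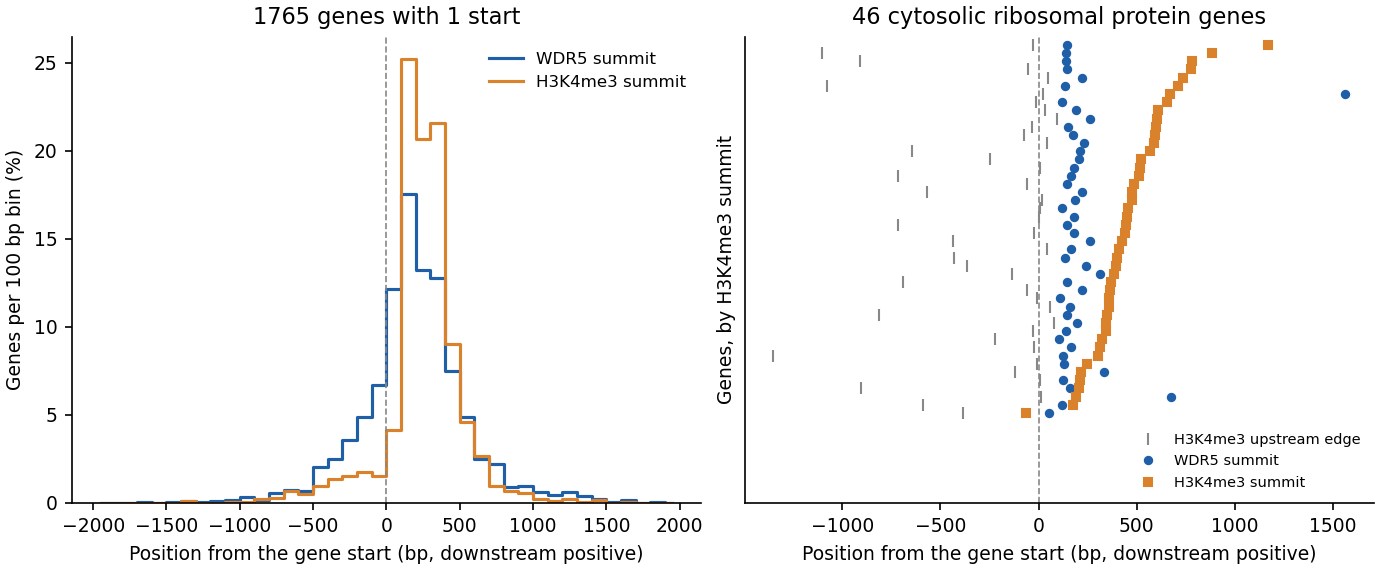
Left, positions of the WDR5 and H3K4me3 summits around the gene start for 1765 genes with 1 start (x axis, bp, downstream positive; y axis, percent of genes per 100 bp bin); right, WDR5 summit, H3K4me3 summit and upstream edge of the H3K4me3 region for 46 cytosolic ribosomal protein genes, 1 gene per line, ordered by the H3K4me3 summit. WDR5 summits of the ribosomal protein genes stand in a column around +163 bp, Rpl13a and Rps9 apart, while their H3K4me3 summits range from −65 to +1171 bp.

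A WDR5 peak overlapped 4671 of the 69221 H3K4me3 regions, 6.75% (6.56 to 6.94%), by 1 bp or more. Of these, 4323 regions had 1 WDR5 peak, 330 had 2, 16 had 3 and 2 had 4. Regions with WDR5 had a median width of 1547 bp (quartiles 1167 and 1963 bp) and those without had 700 bp (quartiles 347 and 1178 bp), a ratio of 2.21. Part of that gap went with gene context. Of regions with WDR5, 68.8% lay at a protein-coding gene start, within 1 kb, against 18.1% of those without. Regions inside genes made up 14% of those with WDR5 and 42.3% of those without, and regions outside genes 11.3 and 32.8%. Among regions at protein-coding starts the medians were 1699.5 bp with WDR5 and 1355 bp without. At other gene starts they were 1302 and 773 bp, inside genes 1052.5 and 574 bp, and outside genes 863 and 554 bp. With a WDR5 peak of −log10 q of at least 2 the order turned away from gene starts. The medians were then 343 bp inside genes and 380 bp outside genes, below those of regions without WDR5. Their lower quartiles were both 281 bp. Narrow WDR5 peaks of 260 to 290 bp with a fold of at least 5 included 71 in H3K4me3 regions of up to 300 bp. The part of such peaks in these medians was not tested. A wider region also offers more room for a chance overlap, which the count of summits per length takes into account.

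From 0.5 kb upward, the share of regions with a WDR5 peak was higher in each wider class, in each gene context. At protein-coding starts it was 2.34% in regions of up to 300 bp, 21.5% (20.7 to 22.3%) at 1 to 2 kb, 40.6% (38.5 to 42.7%) at 2 to 3 kb and 48.8% (40.9 to 56.7%) above that. Within 1 width class the share differed by context: for regions of 1 to 2 kb the share was 21.5% at protein-coding starts, 8.19% at other gene starts, 4.60% inside genes and 4.28% outside genes. Per length, over all contexts, WDR5 summits numbered 93.3 per Mb in regions of 1 to 2 kb, 144 per Mb at 2 to 3 kb and 153 per Mb above, against 28.1 per Mb at 0.3 to 0.5 kb. These pooled densities mix width with context: at protein-coding starts alone they were 154 per Mb at 1 to 2 kb, 197 per Mb at 2 to 3 kb and 188 per Mb above. The narrowest class, up to 300 bp, stood out of the pooled order with 78.0 per Mb.

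The height of the H3K4me3 signal did not follow the same pattern. Over all regions the median H3K4me3 fold was 9.03 with WDR5 and 4.49 without. At protein-coding starts the order was the other way, 9.47 with WDR5 (9.32 to 9.63) and 9.98 without (9.85 to 10.1). Within protein-coding starts of 1 to 2 kb, 4 equal groups by H3K4me3 fold had WDR5 on 22.4, 24.3, 21.9 and 17.3% of regions, from the lowest fold to the highest. The group of highest fold also had narrower regions, with a median of 1240 bp against 1622.5 bp in that of the lowest. At single-start genes the regions with WDR5 reached farther downstream, to a median of 1125.5 bp past the start against 943 bp. Upstream they reached 493.5 and 447 bp.

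**Figure D4:**
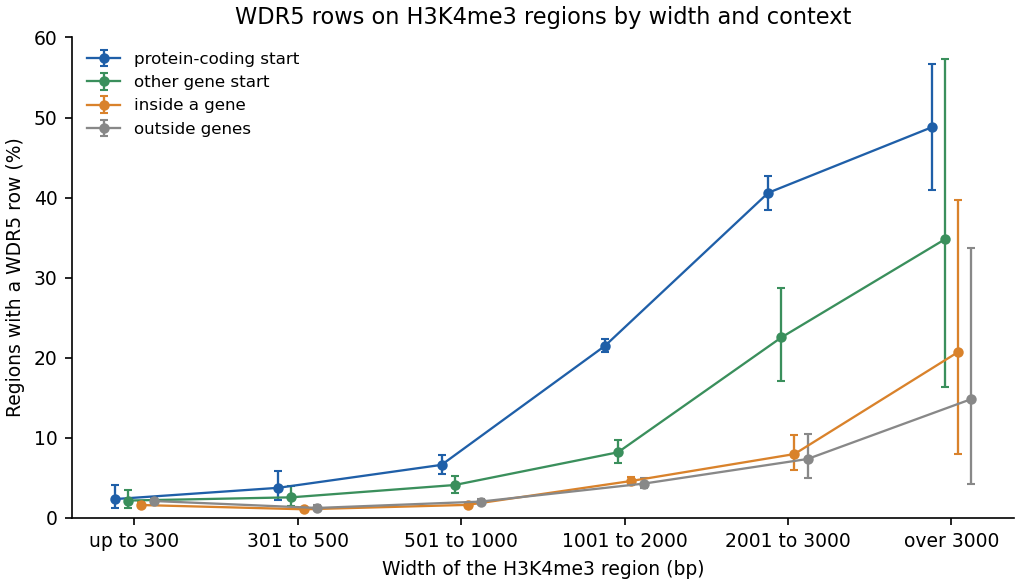
Share of H3K4me3 regions with a WDR5 peak (y axis, percent; "row" is a peak of the list) by width class (x axis, bp) and gene context in the WT rescue; bars are exact 95% binomial intervals. The line for protein-coding starts runs from 2.34 to 48.8% and lies above the other contexts from 0.5 to 1 kb up to 2 to 3 kb; in the widest class its interval overlaps that of other gene starts.

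Width alone did not mark a region for WDR5, as the extremes show. The 2 widest regions with a WDR5 summit lay away from protein-coding starts. One, chr17:39843442-39848829, 5388 bp wide, overlapped Rn18s-rs5, a ribosomal RNA repeat annotated as a pseudogene, where reads from many repeat copies can gather. The other, chr19:5797922-5802433, 4512 bp, lay on Malat1, an abundant nuclear noncoding RNA. The next 3 with a WDR5 summit were at Igf2bp1 (4007 bp), an mRNA-binding protein gene, Cdk6 (3911 bp), a cell cycle kinase gene, and Tenm4 (3838 bp), a transmembrane protein gene, and their WDR5 peaks were weak, each with a −log10 q of 0. A region of 3866 bp at Eif4a2, a translation initiation factor gene, was overlapped by a stronger WDR5 peak, with a fold of 5.28 and a −log10 q of 9.81, whose summit lay outside the region. The widest regions without WDR5 were nearly as wide. They included those at Gm20346 (4052 bp), Zmiz1 (3950 bp), Mycn (3943 bp) and Egr2 (3873 bp). Egr2 encodes a developmental transcription factor and Mycn an oncogenic transcription factor of the MYC family.

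WDR5 was also more frequent at promoters richer in CpG. For single-start genes, the 300-base promoter held a median of 25 CpG where the H3K4me3 region had WDR5 (1780 genes) and 20 where it had none (5835 genes), against 7 over all 31396 promoters of the table. In 4 equal groups by CpG count, the share of genes with WDR5 was 12.6, 20.1, 26.0 and 34.8%, from the poorest to the richest. Among genes with regions of 1 to 2 kb the groups gave 14, 19, 24.2 and 30.8%. The medians of GC content were 64.0 and 61.3%.

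Short motifs differed by a few percentage points. The GC box was in 72.5% of promoters with WDR5, 67.2% of those without and 36.0% of all promoters. The ETS core was in 29.9, 25.5 and 15.1%, the E-box, a palindrome that MYC proteins can bind, in 12, 9.72 and 7.14%, and the YY1 core in 8.60, 5.81 and 6.38%. The NRF1 core was in 8.54, 6.60 and 3.9%. The CCAAT box ran the other way, with 34.8, 39.4 and 37.3%. Among 28 cytosolic ribosomal protein promoters 16 held the ETS core (57.1%, 37.2 to 75.5%) and 13 the GC box (46.4%). The CCAAT box was in 7 (25%), the YY1 core in 5 (17.9%), the NRF1 core in 3 (10.7%) and the E-box in 2 (7.14%). Each search covered both strands of the window, matches of different motifs may overlap, and CpG-rich motifs move with base composition, whose part was not tested.

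At the gene level, 3584 of 14497 protein-coding genes with H3K4me3 at the start had a WDR5 peak on it, 24.7%, and 534 (3.68%) had one with −log10 q of 2 or more, called a stricter peak here. Before any match on region width, the translation machinery stood above that level by all peaks. WDR5 was on the H3K4me3 region of 61 of 75 cytosolic ribosomal protein genes (81.3%, 70.7 to 89.4%), of 20 of 32 translation initiation and elongation factor genes (62.5%, 43.7 to 78.9%) and of 13 of 21 nucleolar and ribosome biogenesis genes (61.9%, 38.4 to 81.9%). With stricter peaks the counts were 44 of 75 (58.7%), 7 of 32 and 3 of 21. The last has an interval of 3.05 to 36.3%, which includes 3.68%. Over all genes the share by all peaks was 42.8% in regions over 2 kb and 22.9% at 1 to 2 kb. The translation factors had 14 of 18 (52.4 to 93.6%) and 6 of 14 (17.7 to 71.1%) in these classes. The nucleolar genes had 7 of 10 (34.8 to 93.3%) and 6 of 11 (23.4 to 83.3%). Translation factors at 1 to 2 kb and nucleolar genes over 2 kb thus could not be told from all genes. Splicing factors and hnRNPs, the proteins that process pre-mRNA, had WDR5 at 35 of 66 genes (53%). By contrast the mitochondrial ribosomal protein genes had it at 15 of 76 (19.7%), oxidative phosphorylation genes at 19 of 77 (24.7%) and proteasome genes at 11 of 38 (28.9%), close to the share over all genes. Within regions over 2 kb, however, oxidative phosphorylation genes had it at 11 of 17 (64.7%, 38.3 to 85.8%), an interval that includes 42.8%. Splicing genes of that width had it at 25 of 39 (64.1%, 47.2 to 78.8%). With stricter peaks these counts were 1 of 17 and 6 of 39, beside 7.66% over all genes of that width. At 1 to 2 kb the 2 lists differed, with 8 of 56 (14.3%) and 10 of 27 (37.0%) by all peaks. Over 2 kb the mitochondrial ribosomal protein genes had WDR5 at 3 of 13 (23.1%) and the proteasome genes at 0 of 3.

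Ribosomal protein genes also had wide H3K4me3 regions, with a median of 2477 bp against 1518 bp over all genes. Among genes with regions over 2 kb, the share with WDR5 was 42.8% (1153 of 2691), and 7.66% with the stricter peaks. Of the 67 ribosomal protein genes in that width class, 55 had WDR5 (82.1%, 70.8 to 90.4%) and 39 had a stricter peak (58.2%). In the same width class the ribosomal protein share was thus above that of all genes by both counts. The median H3K4me3 fold of the ribosomal protein regions was 5.61, against 10.2 over all genes. Many of these genes have processed pseudogenes elsewhere in the genome, and how reads with several matches were treated was not given in the sources used here.

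Among single genes, Rpl13 had a WDR5 peak of 1540 bp (chr8:123101920-123103459) with a fold of 13.3 and a −log10 q of 91.7 on a region of 2308 bp. Rps6 had a fold of 17.1 and a −log10 q of 73.1 (chr4:86856587-86857809), and Rpl17 a fold of 15.6 and 70.7. Rpl27a and Rps27a had none, on regions of 3362 and 2719 bp. Among the translation factors, Eef2 (chr10:81176415-81177383) had a fold of 17.1 and a −log10 q of 79.7, Eef1g, a subunit of elongation factor 1, had 16.03 and 66.1, and Eif3d, a subunit of initiation factor 3, had 11.8 and 46.6. Eif2s2 and Eif3a had no WDR5 peak. The nucleolar genes had weaker peaks. Ncl, which encodes nucleolin, had a fold of 4.0, Gnl3 3.75 and Fbl, which encodes fibrillarin, 3.16. The splicing list held Snrpb, with a fold of 14.7, and Sf3b3, with 6.45, whereas Hnrnpd and Hnrnpk had no WDR5 on regions of 3428 and 3316 bp. Ndufs1, of respiratory complex I, had a fold of 3.79, on a region it shares with Eef1b2 of the translation factor list, so that this peak counts in both lists, and Mrpl18 and Psmc2 had 3.02 and 3.48. Ndufa7 of the oxidative phosphorylation list and Rps28 of the ribosomal protein list likewise share a region and its peak, with a fold of 2.33.

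**Figure D5:**
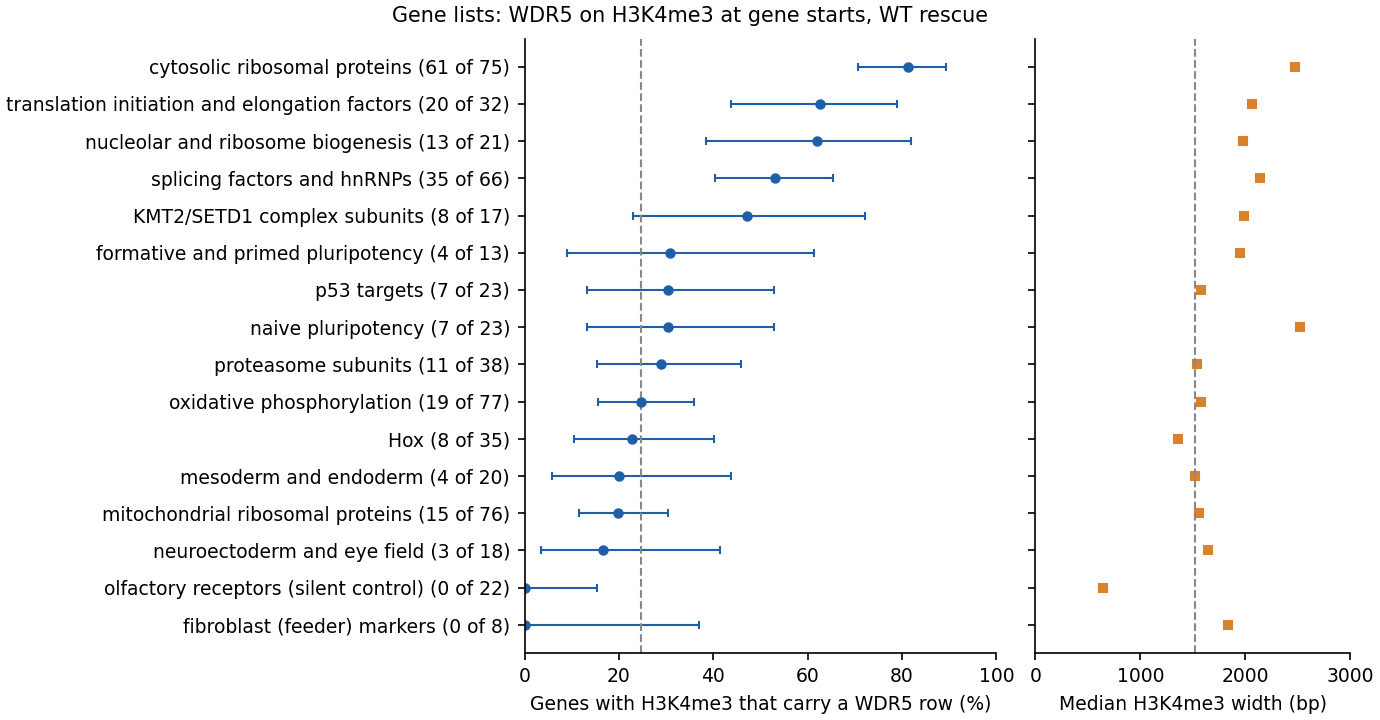
Left, share of genes with H3K4me3 at the start that carry a WDR5 peak (x axis, percent; "row" is a peak of the list; counts beside each list) with exact 95% binomial intervals; right, median width of the H3K4me3 region (x axis, bp); dashed lines give all protein-coding genes, 24.7% and 1518 bp. Cytosolic ribosomal proteins and naive pluripotency genes have similar widths, 2477 and 2519 bp, and shares of 81.3 and 30.4%.

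Naive pluripotency genes had regions as wide as those of the ribosomal protein genes but WDR5 at a smaller share. The naive list had a median width of 2519 bp and WDR5 at 7 of 23 genes (30.4%, 13.2 to 52.9%), 1 of them with a stricter peak. Within regions over 2 kb it was 6 of 14 (42.9%), beside 42.8% for all genes of that width. Sox2 had a fold of 3.63 and a −log10 q of 3.08, Klf2 had 2.69 and 1.46, and Utf1 3.13 and 1.03. Pou5f1 (3655 bp) and Tbx3 (3180 bp) had no WDR5 peak. The formative and primed list, with a median width of 1954 bp, had WDR5 at 4 of 13 genes, Etv4, Zic2 and Foxd3 among them, and Lef1 and Dnmt3a, a de novo DNA methyltransferase gene, had none.

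Lineage genes had shares somewhat below 24.7%, with intervals that include it, so they could not be told from the share over all genes. Stricter peaks were at 2 of 18 neuroectoderm and eye field genes (11.1%), 0 of 20 mesoderm and endoderm genes and 1 of 35 Hox genes (2.86%). Over all genes that share was 3.68%. WDR5 was at 3 of 18 neuroectoderm and eye field genes, with folds of 4.23 at Neurog2, 3.57 at Otx1 and 3.21 at Nes, and none at Sox1 and Nkx6-1. It was at 4 of 20 mesoderm and endoderm genes, with 3.31 at Foxa1, 2.69 at Isl1 and 2.58 at Cxcr4, and none at Foxa2. Hox genes had it at 8 of 35. Hoxc10 had a fold of 2.19 and Hoxa4 3.12, and Hoxc11 and Hoxb9 had no WDR5 peak. Of p53 targets 7 of 23 had WDR5, with a fold of 4.03 at Rrm2b and 3.13 at Bbc3, and Gtse1 and Mdm2 had none. These cells lack p53. Fibroblast markers had none at 8 genes with H3K4me3, for which the exact upper bound is 36.9%, and olfactory receptor genes, which are silent in stem cells, none at 22, with an upper bound of 15.4%. Those 22 were 2.00% of 1100 olfactory receptor genes, and their median H3K4me3 width was 645.5 bp.

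Genes of the WDR5-containing complexes themselves had WDR5 at 8 of 17 (47.1%, 23.0 to 72.2%). That interval includes the 24.7% over all protein-coding genes. At 1 to 2 kb the list had 3 of 10 (6.67 to 65.2%), beside 22.9% over all genes of that width. Over 2 kb it had 5 of 7 (29.0 to 96.3%), beside 42.8%. Kmt2d, a catalytic subunit, had a fold of 4.11 and a −log10 q of 4.41, Wdr82, a SETD1 subunit, 3.58 and 2.5, and Kmt2a 3.12 and 2.24. Setd1a and Kmt2b had no WDR5 peak on regions of 2247 and 2068 bp. The start of Wdr5 had an H3K4me3 region of 1987 bp, which does not test the knockout.

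The strongest WDR5 peaks with the summit in an H3K4me3 region at a protein-coding gene start included wide and narrow ones. They were not the strongest of the whole list, whose highest −log10 p, 2571.78, belonged to a peak outside this class. By −log10 q the first 10 included those at H2-D1 (236), Alkbh5 (227), B3gnt3 (157), Pde4a (133), Rpl13, Brd2 (86.3), Eef2, Rps6 and Rpl17. Alkbh5 encodes an RNA demethylase and Brd2 a bromodomain protein, and their peaks were 902 and 2578 bp wide. The peaks at H2-D1 (chr17:35262960-35263235, fold 25.7), B3gnt3 (fold 22.8) and Pde4a (fold 20.6) were 276, 283 and 281 bp wide. In Pde4a the H3K4me3 region, 370 bp wide, began at the same base as the WDR5 peak.

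Narrow peaks of high fold were counted apart. Peaks of 260 to 290 bp with a fold of at least 5 numbered 104, and 79 of them had the summit inside H3K4me3 (76.0%, 66.6 to 83.8%). Of those 79, 71 lay in H3K4me3 regions of up to 300 bp. The mutant list overlapped 89 of the 104, against 502 of the other 1029 peaks with a −log10 q of at least 2. Without this class 765 of the 1029 stricter peaks lay inside H3K4me3 (74.3%). Whether these narrow peaks in both antibody lists have a shared technical source was not tested.

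The 5 strongest peaks more than 1 kb from any H3K4me3 region included 4 of that width, each 283 bp. They lay in Gspt1 (chr16:11250202-11250484, fold 27.7, 2143 bp from H3K4me3), in Hspb8 (fold 20.2, 2682 bp), 650990 bp from Bcl11a (fold 15.4) and 58610 bp from Cacna1b (fold 12.1). The fifth lay in Mettl3, an RNA methyltransferase gene, was 693 bp wide (chr14:52299699-52300391) with a fold of 22.0 and a −log10 q of 106, and stood 1165 bp from the nearest H3K4me3 region.

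WDR5 peaks inside H3K4me3 were found again in the mutant list more often than those outside. The mutant WDR5 list overlapped 1073 of the 4862 inside peaks (22.1%, 20.9 to 23.3%) and 239 of the 6080 outside peaks (3.93%, 3.46 to 4.45%), although the mutant list held more peaks (26691 against 10942). Of the stricter peaks it overlapped 497 of 844 (58.9%) and 94 of 289 (32.5%). The H3K4me3 regions with WDR5 in the WT rescue were overlapped by a mutant H3K4me3 region in 96.9% of cases, and those without in 79.5%. At protein-coding starts the shares were 99.8 and 94.8%. Over all contexts the regions with WDR5 were also wider (median 1547 against 700 bp) and of higher H3K4me3 fold (9.03 against 4.49). How far that accounts for these shares was not tested.

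In the mutant rescue 4.27% of H3K4me3 regions (3061 of 71757) had a WDR5 peak, and these were 1344 bp wide in the median against 706 bp for the rest. At the gene level 12.8% of protein-coding genes with H3K4me3 had WDR5. The cytosolic ribosomal protein genes had it at 51 of 74, the initiation and elongation factors at 7 of 32, the nucleolar genes at 6 of 21, the splicing list at 16 of 66 and the complex subunits at 0 of 17 (up to 19.5%). The WT counts for these lists were 61, 20, 13, 35 and 8. With stricter peaks the ribosomal protein counts were nearly equal, 44 of 75 (58.7%) in the WT rescue and 43 of 74 (58.1%) in the mutant rescue. No replicate library was at hand to judge these differences.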

How the data were processed

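Chromatin immunoprecipitation sequencing of WDR5 and H3K4me3 gave 1 peak list per antibody and line, and 4 lists from 6 samples were used; input libraries (2) were not. The tools were MACS2 2.1.2, BWA 0.7.17-r1188, Picard and SAMtools, with mm10, per the submitters' processing notes; their settings and the control were not given in the sources used here. Each deposited row gives a region, a score, a fold (a ratio over background), −log10 p, −log10 q and the summit offset, an other value in bp, all as the authors' peak caller wrote them. Read depth is unknown.

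Rows on chromosomes 1 to 19 were used. A summit is the start plus the offset; a region holds WDR5 where a peak overlaps it by 1 bp or more. Gene starts came from the RefSeq promoter table (GRCm38.p6); of 20661 protein-coding genes 16456 (79.6%) had an entry, and for the other 4205 both gene ends counted as starts, within 1 kb. Where a gene has several starts, the list positions use the one nearest to the WDR5 summit. Shares have exact Clopper-Pearson intervals and medians order-statistic intervals, at 95%. No test was made, since each antibody and line has 1 library. Named genes were those of the 10 strongest WDR5 peaks with the summit in an H3K4me3 region at a protein-coding start. Also named were the 5 widest H3K4me3 regions with a WDR5 summit and the 5 widest with no WDR5 peak. The 5 strongest peaks over 1 kb from H3K4me3 were added, and per list up to 3 genes with and 2 without WDR5. Genes outside these rules were named after their values were seen. A few genes that the rules name are not reported here. The members and the 16 lists were chosen with earlier results of these data known. The scripts were tested on simulated data. Python 3.11.15, pandas 2.3.3, numpy 2.4.6, scipy 1.17.1 and matplotlib 3.10.9 were used.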

Additional observations from a re-analysis of the deposited data

Results flagged for a closer look

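WDR5 peaks with a −log10 q of at least 2 were also found on sequences outside chromosomes 1 to 19, which the comparisons do not use. There were 28 on chromosome X, 9 on chromosome Y and 27 on unplaced sequences. Chromosome X held 68 WDR5 peaks of any score beside 2223 H3K4me3 regions, and 35 of those peaks (51.5%) had the summit inside H3K4me3.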

How the results depend on the processing

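Of 67 recomputed values of 8 results, 35 stayed inside the 95% interval of the reported value, 32 moved outside it and 0 turned direction; the causes of the moves were not tested. With WDR5 peaks of −log10 q of at least 2 (or, in brackets, −log10 p of at least 5), 74.5% [70.9%] of summits were inside H3K4me3, the median distance of outside summits was 9295 bp [9643 bp] and that between summits 87 bp [123 bp]. The share of regions with WDR5 was then 1.25% [2.13%], the width ratio 1.90 [2.09], the share at protein-coding starts 55.0% [64.2%] with and 21.1% [20.6%] without WDR5, and the share of ribosomal protein genes 58.7% [62.7%]. With H3K4me3 regions of −log10 q of at least 2, 7.15% had WDR5, the ratio was 2.05 and 19.2% of regions without WDR5 were at protein-coding starts. Joining H3K4me3 regions within 1 kb gave 178 bp between summits, 7.55%, a ratio of 1.91 and 19.4% without WDR5 at starts. Without narrow peaks of high fold in both lists, 70.3% of regions with WDR5 were at protein-coding starts. Requiring 50% of the WDR5 peak inside gave 6.52% of regions with WDR5, and a summit inside gave 6.53%. A window of 2.5 kb at starts gave 70.7% with and 20.7% without WDR5. Chosen after seeing the data, the promoter table alone gave 55.8 and 14.2%, and both ends of every gene 65.5 and 18.6%. With chromosome X added, all 8 results stayed inside their intervals. No paired analysis was possible because each antibody and line has 1 library, and for the same reason no replicate could be left out. Without read counts the precision of single peaks is unknown, and weak peaks of −log10 q under 2 make up most of the WDR5 list.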
